A study of Mus musculus with 9 samples.

Results

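The genes described here are 9 cadherins other than E-cadherin: Cdh2, Cdh3, Cdh4, Cdh5, Cdh6, Cdh11, Cdh13, Cdh16 and Cdh17. They were taken by gene symbol, mapped to Ensembl gene identifiers, from a table of 54838 genes. The set was chosen by the level of Cdh6, which was much lower in the C5 control than in the other groups, so the level of Cdh6 in that clone is given as a description without a test. The other members were taken as further genes of the family, with earlier results of these data known. Calling the whole set classical and type II cadherins fits 6 of the 9 genes. Cdh2, Cdh3 and Cdh4 are classical (type I) cadherins and Cdh5, Cdh6 and Cdh11 are type II cadherins, whereas Cdh13 has a lipid (GPI) anchor in place of a cytoplasmic tail, and Cdh16 and Cdh17 belong to the 7D cadherins, which have a very short tail.

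Cadherins are calcium-dependent adhesion proteins that hold neighbouring cells together. The tails of classical and type II cadherins bind beta-catenin and p120-catenin, and alpha-catenin links them to actin. Which cadherins a carcinoma cell makes is used to describe how epithelial or mesenchymal it is, with E-cadherin (Cdh1) marking epithelium and N-cadherin (Cdh2) often gained by mesenchymal and invasive cells.

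RNA was measured in 9 untreated libraries of PDA530 Met, a mouse pancreatic ductal adenocarcinoma line of mixed 129/SvJae and C57Bl/6 background that came from a male KPC animal's metastasis in the liver, in 3 groups of 3 replicates. The parental group is the uncloned line. The control group (clone C5) is 1 single-cell clone that was nucleofected with the guide RNAs against Zdhhc20, was not edited and still expresses this palmitoyltransferase gene. The knockout group (clone E4) is 1 single-cell clone edited in Zdhhc20 with CRISPR/Cas9 and the same guide RNAs. Each clone group is thus 1 clone sampled 3 times, so a difference between groups cannot be told apart from a difference between clones, and p-values measure only the spread between these cultures.

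Library totals ranged from 16525869 to 23192701 counts. Zdhhc20 was at 33.9 to 42.5 CPM (counts scaled to a common depth) in the knockout libraries, 85.8 to 123 CPM in the control libraries and 75.3 to 90.7 CPM in the parental libraries. The median SD of log2 CPM over the more abundant genes (5 CPM or more on average) was 0.203 in the C5 control, 0.0753 in the E4 knockout and 0.0839 in the parental line. Of 10 markers of pancreatic duct epithelium, 8 had a mean of at least 1 CPM in the parental line and in the C5 control and 9 in the E4 knockout, and their summed level was 6738 to 8211, 7040 to 9408 and 4349 to 4477 CPM in these groups. Epcam, a defining epithelial surface marker, was nearly absent, at 0.198 CPM in the parental line, 0.15 CPM in the C5 control and 0.61 CPM in the E4 knockout.

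The upstream sequence of Cdh6 is shown because this gene had the largest fold change of the 4 members abundant enough to test, and it is the 1 member for which a promoter sequence was matched. It covers the 250 bases before the RefSeq start, chr15:13173676-13173925 of GRCm38.p6, minus strand, read 5′ to 3′ with motif matches in capitals.
Cdh6: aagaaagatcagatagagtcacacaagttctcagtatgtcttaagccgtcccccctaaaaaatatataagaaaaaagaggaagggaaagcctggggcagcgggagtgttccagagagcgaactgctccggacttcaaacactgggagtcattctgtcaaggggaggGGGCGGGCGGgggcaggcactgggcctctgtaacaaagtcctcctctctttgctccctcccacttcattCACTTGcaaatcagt
Searched on both strands, the window holds 2 overlapping matches to the GC box (GGGCGG), the first beginning 84 bases before the start, and 1 match to the E-box (CANNTG), from 15 to 10 bases before it. Of 32851 RefSeq promoter windows cut to the same length, 32.7% hold the GC box letters and 66.2% the E-box letters. The letters of the CCAAT box (CCAAT, in 33.8% of windows), the TATA box (TATAAA, in 12.4%) and the AP-1 motif (TGANTCA, in 6.75%) are not in this window. These matches describe the sequence and were not measured as bound sites.

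Of the 9 genes, 4 passed the filter on low counts (Cdh2, Cdh3, Cdh6 and Cdh17) and were tested among 13153 genes. The other 5 (Cdh4, Cdh5, Cdh11, Cdh13 and Cdh16) held at most 13 counts in any library. Levels of different genes are compared as TPM (counts divided by exon length and scaled to a common total). By TPM the order in the parental line was Cdh17 at 246 ± 15.2, Cdh2 at 129 ± 10.2, Cdh6 at 13.6 ± 1.77 and Cdh3 at 13.1 ± 2.09 (SD, n = 3), where Cdh6 and Cdh3 differed by less than their spread. In the E4 knockout the order was Cdh17 at 199 ± 1.84, Cdh2 at 141 ± 9.15, Cdh3 at 19.5 ± 1.71 and Cdh6 at 10.6 ± 1.31 TPM. In the C5 control Cdh17 was at 252 ± 7.5, Cdh2 at 113 ± 25.2, Cdh3 at 5.69 ± 1.42 and Cdh6 at 0.35 ± 0.14 TPM. Cdh17 and Cdh2 were thus the main members in every group, and the place of Cdh6 and Cdh3 behind them differed between groups.

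Cdh6 (K-cadherin, a type II cadherin of the developing kidney that is also made by several carcinomas; ENSMUSG00000039385, chromosome 15 from 13028701 to 13173675, minus strand) was nearly lost from the C5 control. It was at 43.5, 39.1 and 34.1 CPM in parental replicates 1, 2 and 3, at 1.22, 1.49 and 0.63 CPM in the control replicates, and at 30.4, 33.8 and 26.7 CPM in the knockout replicates. Every control library lay below all others, as it did for 10.9% of all tested genes, and the control libraries still held 28, 25 and 12 counts. The log2 fold change of the C5 control was -5.13 (SE 0.23) against the parental line, a 34.9-fold lower mean level, and the E4 knockout was 4.77 higher (SE 0.23) than the C5 control, or 27.2-fold. Of all tested genes, 0.35% were at least as low in the C5 control against the parental line. In bulk RNA, fewer cells making Cdh6 and less of it per cell cannot be told apart.

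The comparison between knockout and parental libraries was not the contrast behind the choice of Cdh6, but that choice required a high level in both groups, so the test is not free of it. There the log2 fold change of Cdh6 was -0.36 (SE 0.17, adjusted p 0.139). The highest knockout library (33.8 CPM) came close to the lowest parental one (34.1 CPM), and by TPM it lay above that library (11.9 and 11.8 TPM). This fold change was called in the fit of only these groups (adjusted p 0.0147) and without control replicate 3 (adjusted p 0.0324). It was not called in the other 15 of 17 alternatives (adjusted p up to 0.361). The nearest tested genes on either side of Cdh6, 9 in number without cadherins and from 93410 to 12448850 bases away, had log2 fold changes from -0.08 to 1.05 between the C5 control and the parental line, with a median of 0.18. The 522 other tested genes of chromosome 15 had a median of 0.13 in that comparison. In the E4 knockout against the parental line, 5 of these 9 neighbours were called, each of them higher, where 31.4% of all tested genes were called, and their median was 0.45 beside 0.09 for the chromosome.

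**Figure D1:**
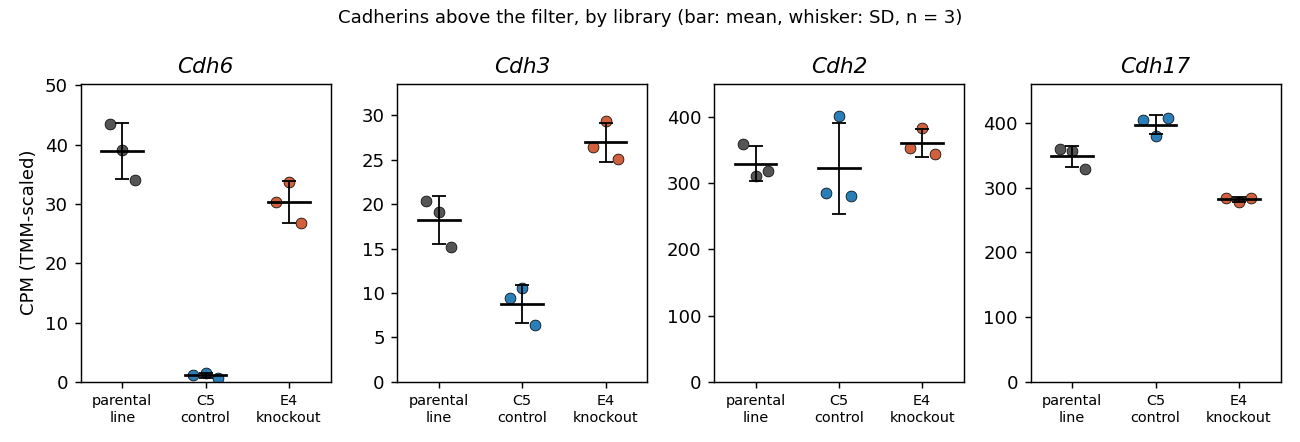
Level in CPM (vertical axes, each from 0) of the 4 tested cadherins in every library of the parental line, the C5 control and the E4 knockout; horizontal bars are means and whiskers SD over 3 libraries. Cdh6 is at 0.63 to 1.49 CPM in the C5 control, Cdh3 has the order control, parental, knockout, Cdh2 overlaps between groups, and Cdh17 is lowest in the E4 knockout.

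Cdh3 (P-cadherin, a classical cadherin of basal epithelia that is often raised in pancreatic cancer; ENSMUSG00000061048, chromosome 8 from 106510891 to 106557297, plus strand) differed between all 3 groups. It was at 20.3, 19.1 and 15.2 CPM in the parental replicates, 9.43, 10.5 and 6.4 CPM in the control replicates, and 26.4, 29.4 and 25.1 CPM in the knockout replicates. No group overlapped another: the 3 control libraries were the lowest and the 3 knockout libraries the highest, the latter being the case for 15.6% of tested genes. Cdh3 rose by 1.62 on the log2 scale in the E4 knockout against the C5 control (SE 0.18, adjusted p 0.000157), where 42.9% of tested genes were called. It was 1.05 lower in the C5 control than in the parental line, a log2 fold change of -1.05 (SE 0.18, adjusted p 0.00425), where 21.4% were called. Against the parental line the E4 knockout was 0.57 higher (SE 0.18, adjusted p 0.0359), where 31.4% were called, a call lost without parental replicates 2 or 3 or any 1 knockout library (adjusted p 0.0684 to 0.132).

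Cdh2 (N-cadherin, the classical cadherin of neural and mesenchymal cells; ENSMUSG00000024304, chromosome 18 from 16588877 to 16809246, minus strand) was abundant in every group. It was at 359, 310.5 and 318 CPM in the parental replicates, 285, 402 and 280.3 CPM in the control replicates, and 353, 383 and 343 CPM in the knockout replicates. The groups overlapped, and control replicate 2 was higher than every other library. Cdh2 was not called in any comparison: the log2 fold change of the E4 knockout was 0.13 against the parental line (SE 0.14, adjusted p 0.51) and 0.16 against the C5 control (SE 0.14, adjusted p 0.367), and that of the C5 control against the parental line was -0.03 (SE 0.14, adjusted p 0.89). Without control replicate 2, Cdh2 was 0.35 higher in the E4 knockout than in the C5 control (SE 0.08, adjusted p 0.00605).

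Cdh17 (LI-cadherin, a 7D cadherin of intestinal epithelium also made by gastrointestinal tumours; ENSMUSG00000028217, chromosome 4 from 11758147 to 11817895, plus strand) was the most abundant member and fell in the E4 knockout. It was at 359, 356 and 329 CPM in the parental replicates, 404, 380.2 and 407 CPM in the control replicates, and 284, 277 and 284 CPM in the knockout replicates. The knockout libraries lay below the 6 others, as for 18.6% of tested genes, and differed from each other by less than those of any other group. Against the parental line it changed by -0.31 on the log2 scale (SE 0.07, adjusted p 0.00735), and against the C5 control by -0.50 (SE 0.07, adjusted p 0.000382). The C5 control was 0.19 higher than the parental line on the log2 scale (SE 0.07, adjusted p 0.0692). By TPM these groups overlapped, the lowest control library (243 TPM) lying below the highest parental one (256 TPM). Leaving out control replicate 2 (0.22, adjusted p 0.0342) or using the Wald test of DESeq2 (0.18, adjusted p 0.0202) made this difference a call. It was not called in the other 15 of 17 alternatives (adjusted p up to 0.273).

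Counted together, 2 of the 9 members (Cdh3 higher, Cdh17 lower) were called between the E4 knockout and the parental line. Leaving Cdh6 aside, 2 of the 8 others (again Cdh3 and Cdh17) were called between the E4 knockout and the C5 control, and 1 (Cdh3) between the C5 control and the parental line. With 4 members tested, or 3 where Cdh6 is left aside, these counts do not set the family apart from the 31.4%, 42.9% and 21.4% of all tested genes called. Both comparisons of the E4 knockout share its libraries and are not independent of each other. Within the C5 control, replicate 2 had the most Cdh2, Cdh3 and Cdh6 and the least Cdh17, and it also had the lowest summed level of duct markers, 7040 CPM against 9277 and 9408 CPM. The part of this library difference in the comparisons was not tested beyond leaving the library out.

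The 5 other members were at or near the lower limit of these libraries. Cdh4 (R-cadherin, of retina and brain) held 0 counts in all 9 libraries, which allows up to 0.0548 CPM in the parental line, 0.051 CPM in the C5 control and 0.054 CPM in the E4 knockout, and Cdh13 (T-cadherin, GPI-anchored) held 1 count in each group. Cdh16 (KSP-cadherin, a 7D cadherin of kidney tubules; chromosome 8 from 104601911 to 104624396) held 7, 11 and 4 counts in the parental libraries, 6, 6 and 2 in the knockout libraries, and 0 in each control library. Taking a floor of 3 counts over the group, Cdh16 was at least 7.88-fold lower in the C5 control than in the parental line and at least 4.94-fold lower than in the E4 knockout. It could be fitted only without a filter, where the adjusted p was 0.00365 and 0.00611 for these comparisons. Cdh16 thus shared with Cdh6 its lowest level in the C5 control, at a depth that gives few counts. The floors and the intervals given here cover counting error only.

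Cdh11 (OB-cadherin, a type II cadherin of osteoblasts and fibroblasts) held 5, 4 and 5 counts in the parental libraries, 13, 8 and 12 in the control libraries, and 10, 3 and 9 in the knockout libraries. Its level in the C5 control was 2.19 times that in the parental line (95% counting interval 1.14 to 4.44), a difference not called without a filter (adjusted p 0.286). Cdh5 (VE-cadherin, which marks endothelium) held 5 counts over the parental libraries, 4 over the control libraries and 12 over the knockout libraries. Its ratio of the E4 knockout to the C5 control was 3.17 (95% counting interval 0.962 to 13.5), so a difference was not detectable at this depth. Differences between the groups in Cdh4 and Cdh13 were likewise not detectable.

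**Figure D2:**
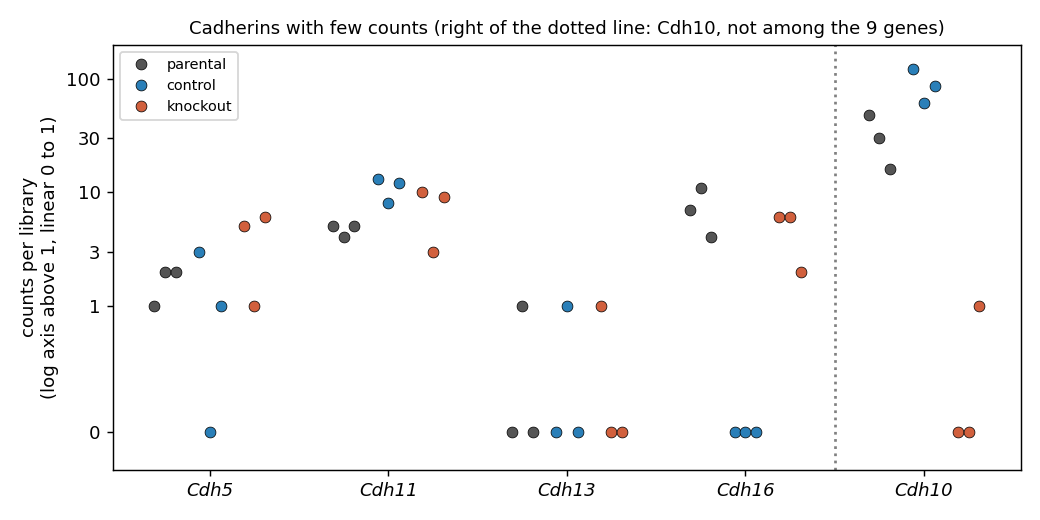
Counts per library (vertical axis, logarithmic above 1 and linear from 0 to 1) of 4 rarely counted members and, right of the dotted line, of Cdh10, a type II cadherin outside the 9 genes. Points are libraries coloured by group; Cdh16 is at 0 in the 3 control libraries and Cdh10 at 0, 0 and 1 in the knockout libraries.

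Markers of other cell types were at a few CPM or less in sum. Summed over 10 endothelial markers, the level was 2.53 to 4.94 CPM in the parental line, 1.96 to 2.75 CPM in the C5 control and 0.389 to 0.732 CPM in the E4 knockout. Erg, Emcn, Cldn5 and Robo4 held 0 counts in every library, Kdr was counted in the C5 control alone (8 counts), and most of the sum came from Egfl7 and Esam. Summed over 10 fibroblast markers it was 3.12 to 4.05, 1.31 to 2.89 and 0.876 to 1.67 CPM in the same order, with Col1a2, Col3a1, Dcn, Lum, Dpt and Pdpn at 0 counts in every library. Summed over 8 leukocyte markers it was 1.41 to 2.12, 1.57 to 2.88 and 0.946 to 1.28 CPM, with Cd3e, Adgre1 and Tyrobp at 0. Tested members of these lists that were called were lower in the E4 knockout. Against the parental line they were Egfl7, Esam and Pdgfra (log2 fold changes of -3.15, -2.54 and -2.04), where 31.4% of all tested genes were called. Against the C5 control they were Egfl7, Pdgfra and Cd68 (-2.63, -1.24 and -1.10), where 42.9% were called. Egfl7, Esam and Pdgfra passed the filter on low counts through groups other than the knockout, where they were higher, so these calls are a description. The part of these markers in the cadherin values was not tested.

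Of 13 other classical and type II cadherins, 6 held 0 counts in every library and 3 were tested. E-cadherin (Cdh1), which lies 46054 bases beyond the end of Cdh3 on chromosome 8, fell in the E4 knockout, by 0.65 on the log2 scale against the parental line (SE 0.11, adjusted p 0.00263) and by 0.74 against the C5 control (SE 0.11, adjusted p 0.000848). Its neighbour Cdh3 was higher in the same libraries, in which the summed duct markers were lowest (4349 to 4477 CPM). That sum includes Cdh1 itself and came mostly from keratins (Krt7, Krt8, Krt18 and Krt19) and Cdh1. Of the 10 duct markers, 5 were called lower in the E4 knockout than in the parental line, 2 higher (Epcam and Cldn4) and 3 were not called (Krt7, Sox9 and Cldn7), where 31.4% of all tested genes were called. Against the C5 control 5 were lower, among them Krt7 (-0.999), and 3 higher, among them Cldn7 (0.63), where 42.9% were called. Epcam and Cldn4 held 11 and 8 counts over the parental libraries, 9 and 7 over the control libraries, and 34 and 82 over the knockout libraries. Both passed the filter on low counts only through the knockout group, where they were high, so their calls are a description. Krt7 was also 1.09 higher in the C5 control than in the parental line (adjusted p 0.000446). The part of these markers in the cadherin values was not tested. Cdh24, a type II cadherin at 9.03 CPM in the E4 knockout, 5.95 CPM in the parental line and 4.21 CPM in the C5 control, was 0.60 higher in the E4 knockout than in the parental line (SE 0.17, adjusted p 0.0252) and 1.11 higher than in the C5 control (SE 0.17, adjusted p 0.000933). The first of these calls was lost without parental replicates 2 or 3 or any 1 knockout library (adjusted p 0.0602 to 0.0923).

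Cdh10, a type II cadherin of the brain, lies on the same chromosome as Cdh6, 5645272 bases beyond it (chromosome 15 from 18818947 to 19014236). It held 48, 30 and 16 counts in the parental libraries, 121, 61 and 86 in the control libraries, and 0, 0 and 1 in the knockout libraries. The knockout libraries lay below the 6 others, as for 18.6% of tested genes. In the clones the order of Cdh10 was the reverse of that of Cdh6, highest in the C5 control and nearly lost in the E4 knockout. The C5 control held 253 times the level of the E4 knockout (95% counting interval 45.1 to 10046, adjusted p 3.75e-05) and the parental line 95.5 times (16.7 to 3810, adjusted p 0.000306). The C5 control was 1.41 higher than the parental line on the log2 scale (SE 0.36, adjusted p 0.0217), a call lost without parental replicate 2, parental replicate 3 or control replicate 1 (adjusted p 0.0654 to 0.0739).

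The makeup of cadherin mRNA was described as each gene's share of the summed TPM of 22 cadherins, the 9 members and the 13 others. The sum was 1238 ± 41.8 TPM in the parental line, 1169 ± 97.7 TPM in the C5 control and 910 ± 25.1 TPM in the E4 knockout (SD, n = 3). Cdh1 made up 66.9% ± 3.15, 67.6% ± 4.38 and 58.4% ± 0.046 of it in the same order. Cdh17 made up 19.9% ± 1.86, 21.6% ± 1.28 and 21.9% ± 0.738, so its share in the E4 knockout was no lower than elsewhere although its level was. Cdh2 made up 10.4% ± 1.03, 9.86% ± 3.04 and 15.5% ± 0.585, and its lowest share in a knockout library (15.1%) was above the highest in any other library (13.4%, control replicate 2). Cdh3 and Cdh6 made up 1.07% ± 0.2 and 1.1% ± 0.174 in the parental line, 0.492% ± 0.148 and 0.0304% ± 0.0138 in the C5 control, and 2.14% ± 0.129 and 1.16% ± 0.112 in the E4 knockout. Shares rise when the other genes fall, so a larger share of Cdh2 is not a higher level of Cdh2.

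**Figure D3:**
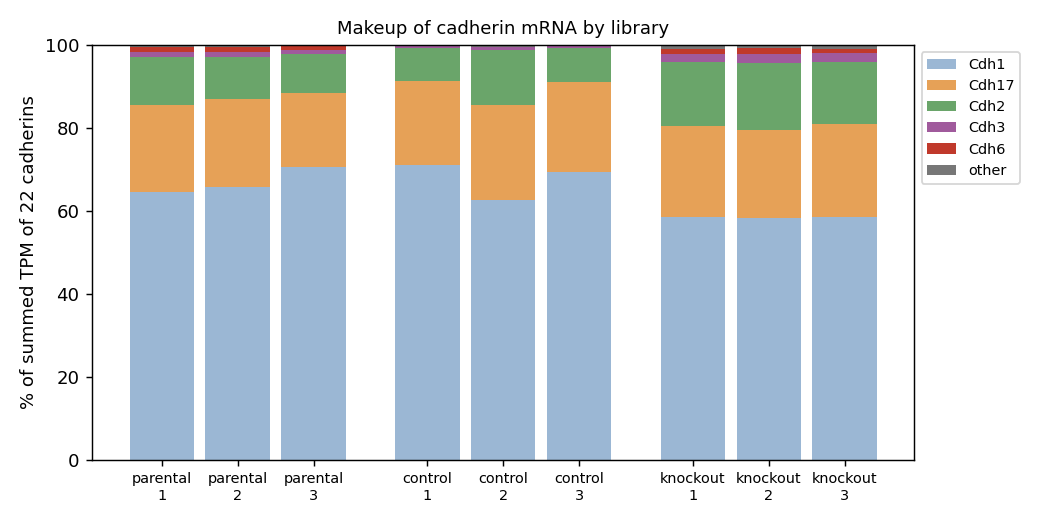
Share of the summed TPM of 22 cadherins (vertical axis, in %) made up by Cdh1, Cdh17, Cdh2, Cdh3, Cdh6 and all others, in each of the 9 libraries. Cdh1 takes 58.3% to 58.4% in the knockout libraries and more in the others, Cdh2 takes more in the knockout libraries, and the band of Cdh6 is too thin to see in the C5 control.

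**Figure D4:**
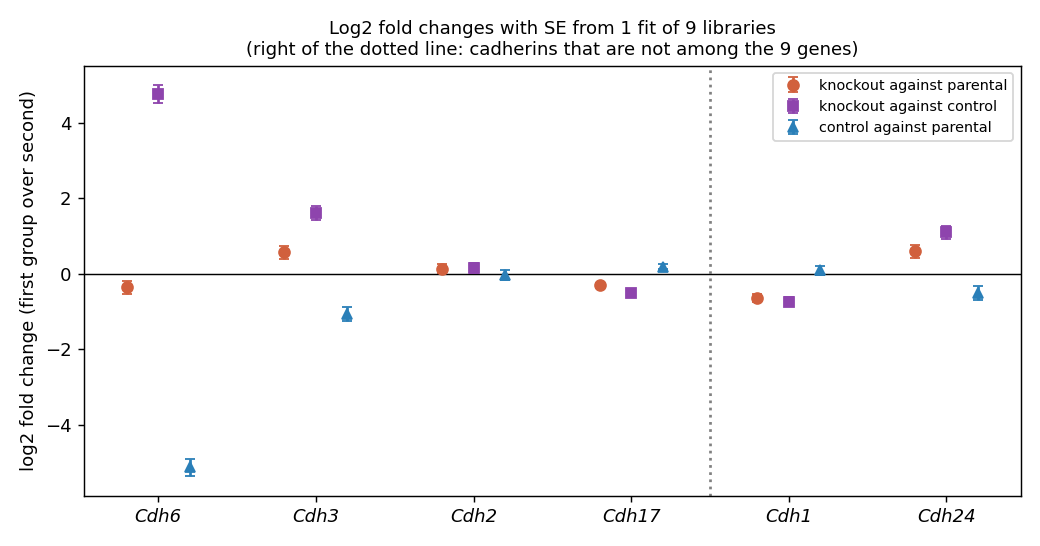
Log2 fold changes (vertical axis) with SE in the 3 comparisons for the 4 tested members and, right of the dotted line, for Cdh1 and Cdh24. Cdh6 has values of -5.13 and 4.77 in the comparisons with the C5 control, which are a description because that clone's Cdh6 level chose the set, and Cdh3 and Cdh24 lie above 0 and Cdh17 and Cdh1 below 0 in both comparisons of the E4 knockout.

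Proteins that bind cadherins or junctional actin were taken as a list of 22 genes, of which 19 were tested. In the E4 knockout against the parental line 3 of them were called higher and 6 lower (median log2 fold change -0.08, beside -0.01 over all tested genes), and against the C5 control 2 were higher and 8 lower (median -0.18, beside -0.02). In the C5 control against the parental line 2 were higher and 2 lower (median 0.07, beside 0.01). Over all tested genes 31.4%, 42.9% and 21.4% were called in these comparisons, and nothing particular to the list is read from its counts. Nectin1, an adhesion receptor that acts beside cadherins, changed most in the E4 knockout. It was at 17.6 CPM in the parental line, 7.77 CPM in the C5 control and 0.11 CPM in the E4 knockout, a log2 difference of -7.26 from the parental line (SE 0.29, adjusted p 5.67e-07) and of -6.08 from the C5 control (SE 0.30, adjusted p 1.72e-06). The knockout level rests on 6 counts, and the 95% counting intervals ran from 75.1-fold to 448-fold lower than the parental line and from 33.1-fold to 199-fold lower than the C5 control. Without knockout replicate 2 the log2 differences were -8.20 and -7.01. The C5 control was also lower than the parental line (-1.18, SE 0.17, adjusted p 0.00163).

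Ptprm, a receptor phosphatase found at cadherin junctions, was counted almost only in the parental line, with 127 counts there, 2 in the C5 control and 3 in the E4 knockout. Its level in the parental line was 68.2 times that in the C5 control (95% counting interval 18.5 to 569, adjusted p 0.000446) and 43 times that in the E4 knockout (14.4 to 211, adjusted p 0.000259). Ptprm passed the filter on low counts only through the parental group, where it was high, so these calls are a description. Both control counts lay in replicate 3, and without it the C5 control was at 0 counts, with a fitted log2 difference from the parental line of -8.43 in place of -5.81 (adjusted p 0.000361) that is not a bound. Jup (plakoglobin) was lower in the E4 knockout than in the parental line (-1.26, SE 0.23, adjusted p 0.00285) and the C5 control (-0.96, adjusted p 0.00732). Against the C5 control the actin-binding Lima1 and Ablim1 were lower in the E4 knockout (-1.21, adjusted p 0.000479, and -1.05, adjusted p 0.00366). Against the parental line Lima1 was lower too (-1.08, adjusted p 0.00134), and Ablim1 was not called (-0.41, adjusted p 0.171). Nectin2 was 0.58 higher in the C5 control than in the parental line (adjusted p 0.0183), a call lost without parental replicates 1 or 2 (adjusted p 0.0877 and 0.078).

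Enzymes that mature or cut cadherins were taken as a list of 18 genes, of which 14 were tested. In the E4 knockout 3 were higher and 4 lower than in the parental line (median -0.07), and 4 were higher and 8 lower than in the C5 control (median -0.24). In the C5 control 4 were called against the parental line, each of them higher (median 0.07). Over all tested genes 31.4%, 42.9% and 21.4% were called in these comparisons, with medians of -0.01, -0.02 and 0.01, and these counts too are given as a description. Adam10, the main protease that sheds the ectodomains of N-cadherin and E-cadherin, was at 415 CPM in the parental line, 369 CPM in the C5 control and 201 CPM in the E4 knockout. Its log2 fold change in the E4 knockout was -1.05 (SE 0.12, adjusted p 0.000303) against the parental line and -0.87 (SE 0.12, adjusted p 0.000476) against the C5 control. Adam12, another metalloprotease, and Psen2, a catalytic subunit of gamma-secretase, rose in the E4 knockout, by 1.17 (adjusted p 0.0166) and 0.98 (adjusted p 0.0066) against the parental line and by 1.08 (adjusted p 0.0168) and 1.16 (adjusted p 0.00188) against the C5 control. The Adam12 calls were lost without parental replicate 3 or knockout replicate 1 (adjusted p 0.0674 and 0.0507) and without control replicate 1 (adjusted p 0.0662). Pcsk6, a proprotein convertase, was 0.82 higher in the C5 control than in the parental line (adjusted p 0.00626) and lower in the E4 knockout than in the C5 control (-1.17, adjusted p 0.000395). Adam9 and Adam17 were 0.51 and 0.43 higher in the C5 control than in the parental line (adjusted p 0.00336 and 0.00343).

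The genes whose pattern was most like that of Cdh6 were named by the Pearson correlation of log2 CPM with Cdh6 over the 9 libraries, among 10019 other tested genes whose mean reached 5 CPM. They were Gca (r = 0.999), Cnot11 (r = 0.993), Mbnl3 (r = 0.988), Pms1 (r = 0.988) and H2afy (r = 0.987), which lie on chromosomes 2, 1, X, 1 and 13, while Cdh6 lies on chromosome 15. These correlations are a description over libraries that share 3 groups, and 101 genes reached at least 0.95. The sizes differed: Gca was at 17.2 CPM in the parental line, 5.98 CPM in the C5 control and 15.8 CPM in the E4 knockout, and Mbnl3 was at 15.1, 1.51 and 10.4 CPM. Cnot11 was at 39.6, 27 and 39 CPM, Pms1 at 15.7, 9.91 and 15 CPM, and H2afy at 118, 79.3 and 117 CPM.

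**Figure D5:**
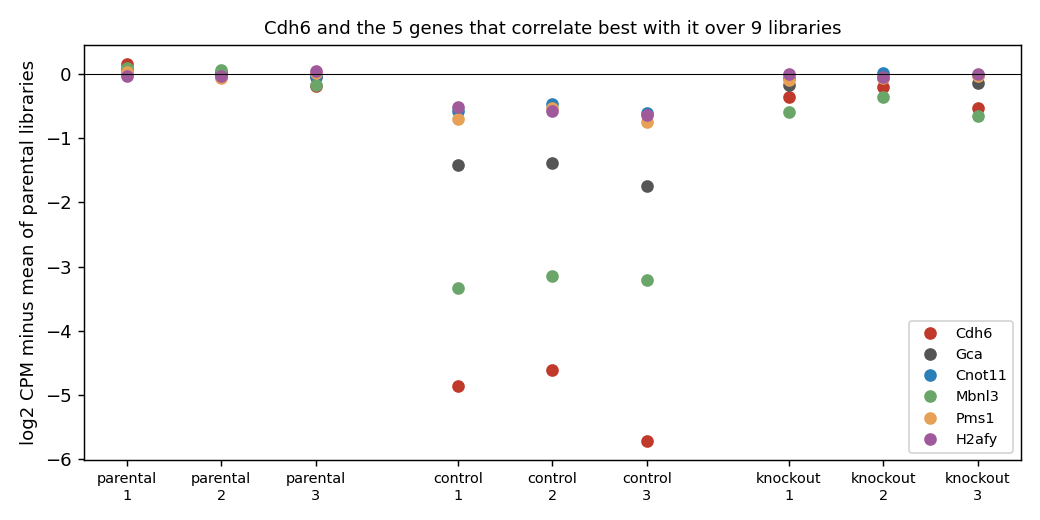
Log2 CPM of Cdh6 and of the 5 genes that correlated best with it, minus each gene's mean over the parental libraries (vertical axis), in the 9 libraries. All 6 genes are lowest in the 3 control libraries; Cdh6 and Mbnl3 drop most there.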

How the data were processed

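RNA of 9 libraries was sequenced from KAPA mRNA HyperPrep libraries, per the labels. The deposited values are RSEM estimated counts per Ensembl gene, all whole numbers, so rounding changed none. The tools named are STAR 2.5.2, RSEM 1.3.0, DESeq2 1.10.1 and build GRCm38, without roles, per the submitters' processing notes; the annotation release and strand setting are not given in the sources used here. RSEM shares out multiply matching reads by an estimate. No exon base of the members is shared with another gene in GENCODE M21 (GRCm38), which gave symbols for 54809 identifiers, positions and exon lengths.

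The main test was the edgeR 4.0.16 quasi-likelihood test (R 4.3.3) on all 9 libraries with the group as the only term, after filterByExpr (minimum count 10, minimum total 15) and TMM scaling, which left 13153 genes. Calls were made at a p under 0.05 after Benjamini-Hochberg adjustment over all tested genes, and every adjusted p is from this fit unless another is named. Tested genes held at least 99.88% of each library's counts. TPM used the summed exon length. The members and gene lists were chosen with earlier results of these data known. Text names all members, up to 3 genes with the largest called change per partner or processing list and comparison, other cadherins and cell type markers with a mean of at least 1 CPM in a group (others are named after their values were seen), and the 5 genes most correlated with Cdh6 (log2 CPM, prior count 2).

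On simulated counts, 74.3% of genes changed 2-fold and 99% of those changed 4-fold were recovered for the E4 knockout against the parental line (12937 genes). Replicates differed beyond sampling noise (lowest chi-square per gene 4.75). Alternatives were other scalings (size factors of DESeq2, total counts), filters (none, a mean of 5 CPM) and tests (DESeq2 1.42.0, limma 3.58.1 voom), a replicate block, fits of the groups compared, each library left out, and a threshold of 0.01.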

Additional observations from a re-analysis of the deposited data

How the results depend on the processing

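Of 979 alternative values for 58 tested log2 fold changes of named genes, 923 kept their direction and their side of the threshold, 22 lost a call, 21 gained one and 13 changed sign. The 2 untested log2 fold changes of Cdh6 kept their direction in all 34 alternative values, from -5.35 to -4.85 for the C5 control against the parental line and from 4.49 to 4.99 for the E4 knockout against the C5 control. The Cdh3 calls that involve the C5 control and both Cdh17 calls of the E4 knockout held in all 17 alternatives each. The number of members called between the E4 knockout and the parental line (2) was 1 at a threshold of 0.01 and 1 to 3 with 1 library left out. The number of other members than Cdh6 called between the C5 control and the parental line (1) was 2 without a filter, 2 with the DESeq2 test and 1 to 2 with 1 library left out.

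All genes called numbered 4131 for the E4 knockout against the parental line, 6840 in the fit of only these groups, 2203 at a threshold of 0.01 and 2515 to 5693 with 1 library left out. The 5643 genes called against the C5 control were 3547 at 0.01 and 4301 to 7204 with 1 library left out. The 2814 genes called between the C5 control and the parental line were 1525 in the fit of only these groups, 1176 at 0.01 and 1472 to 4102 with 1 library left out.

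The sign changes were of log2 fold changes that were not called. Cdh2 ranged from -0.2235 to 0.059 between the C5 control and the parental line with 1 library left out, Cdh1 from -0.0061 to 0.2035 and Adam12 from -0.4245 to 0.3204, and Adam12 was -0.0299 with limma voom. Between the E4 knockout and the parental line, Nectin2 ranged from -0.0969 to 0.0606 and Adam9 from -2.4e-05 to 0.0231 with 1 library left out, and Adam9 was -0.0032 with total counts and -0.0029 under the filter on a mean of 5 CPM. The fitted value of Ptprm in the E4 knockout against the C5 control, with 3 and 2 counts and thus no interpretable fold, ranged from -0.0322 to 3.1863. The cause of these changes was not tested.

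With the replicate number as a block, 3941, 5528 and 2492 genes were called, and 2, 2 and 1 members, as without it. Libraries of the same number in different groups correlated from -0.223 to 0.344 in their deviations from the group means, and 0 of 9 libraries correlated best with its own number in both other groups, so the numbers were not taken as pairs.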
